A study of Mus musculus with 2 samples.

Results

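Genes of the splicing machinery were compared between mouse NIH 3T3 fibroblasts given a plasmid for a truncated ATCE1 and cells given the empty vector. The members were all probe sets with exactly 1 gene symbol in the platform's annotation that begins with Srsf, Lsm or Prpf followed by a digit, or with Snrp, Sf3a, Sf3b or Hnrnp. This symbol rule used no measured value, and it found 148 probe sets of 64 genes, out of 20380 probe sets of 12393 genes with a single symbol. The ATCE1-C-del group was 1 array of RNA from cells that had received pHA-CMV-ATCE1-C-del, a plasmid that by its label drives a form of ATCE1 without its C-terminal part, described as nuclear. The empty vector group was 1 array of RNA from cells transfected with pHA-CMV. Both cultures were NIH 3T3, a single established fibroblast line, both received their plasmid with a lipid reagent, and RNA was taken 48 hours later. By the plasmid name the insert is driven by the CMV promoter, and the labels do not say which share of the cells took it up. RNA came from whole cultures, so a change in some cells and a smaller change in all cells cannot be told apart. With 1 array per group no value has a replicate error, no test was possible, and precision is limited by the number of arrays.

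The spliceosome removes introns from precursor messenger RNA. It is built from small nuclear RNAs and their proteins: U1 marks the start of the intron, U2 marks the branch point, and U4, U6 and U5 join as a tri-snRNP before the catalytic step. The symbols sort its parts by role. Snrp genes encode Sm ring proteins and proteins of the U1 and U2 particles, Lsm genes encode Sm-like proteins that include the ring on U6, and Sf3a and Sf3b genes encode the U2 subunits that hold the branch point. Prpf genes mostly encode proteins of the tri-snRNP and of the Prp19 complex. Srsf genes encode SR proteins, which bind exons and mostly favour their inclusion, and Hnrnp genes encode RNA-binding proteins that often act against it. ATCE1 is a bZIP factor of the CREB family, now called Creb3l4. Factors of this family bind the cAMP response element (CRE). The symbol rule also takes some genes with tasks outside splicing, such as Lsm1, Lsm10, Lsm14a and Lsm14b.

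Signals are MAS5 values on a linear scale, and every ratio is ATCE1-C-del over empty vector. Signals under the array's own median, 77.4 for ATCE1-C-del and 75.9 for empty vector, were raised to it, and a gene counted as measured if it lay above this floor on at least 1 array. Of the 64 genes, 61 were measured on both arrays, 1 on a single array and 2 on neither, against 6807 measured genes in all. Fibroblast markers fixed for this comparison were measured on both arrays for 9 of 9 genes, with summed signals of 36015 for ATCE1-C-del and 36180 for empty vector. None of 4 epithelial, 4 endothelial and 4 neuronal markers reached the floor, and of 4 macrophage markers only Cd68 did, on a single array. Summed signals of these lists ran from 14.3 (endothelial) to 180.8 (macrophage) for ATCE1-C-del and from 32.0 (endothelial) to 127.8 (macrophage) for empty vector. The probe set of Creb3l4 read 18 for ATCE1-C-del and 20.7 for empty vector, under both floors, and so does not check the labels.

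As a whole the splicing genes had a median slightly above that of all genes, with small differences throughout. Of the 62 measured genes, 40 had a log2 ratio above 0 (64.5%), where 48.7% of all measured genes did. Their median log2 ratio was 0.09 (1.07-fold), beside -0.0060 over all measured genes. At least 25% higher (a log2 ratio of 0.32) were 8 of the 62, or 12.9%, where the background over all measured genes was 6.68%: Lsm14b, Lsm8, Lsm2, Sf3a3, Sf3a1, Srsf10, Prpf31 and Prpf40b. Prpf40b was measured on the ATCE1-C-del array only, so its ratio against the floor could only be above 0. It also counts among the 40 above 0. Over the 61 splicing genes measured on both arrays the median log2 ratio was 0.09 as well. At least 20% lower, the same step downwards, was 1 of the 62, Hnrnph3, where the background was 7.89%. The excess of higher calls depends on the choice of probe set and on the floor. With the mean over probe sets, 8.06% of the splicing genes and 6.05% of all measured genes were at least 25% higher. With second-brightest probe sets 11.8% and 8.98% were. With the floor at the 25th percentile, 12.9% of the splicing genes and 17.7% of all genes then measured were at least 25% higher, and without a floor 14.1% and 24.5% were. With a smaller step, a log2 ratio of 0.20, 18 of the 62 were higher, where 15% of all measured genes were, and 6 were lower, where 18.7% were. Counted by probe set, 17 of 131 were at least 25% higher, where 7.65% of all measured probe sets were, and 4 were at least 20% lower, where 8.38% were. None of the 62 was 1.5-fold changed, where 2% of all measured genes were. For the 50 splicing genes with a mean signal above the 75th percentile of the arrays the share above 0 was 31 of 50, where 48% of all genes that bright were above 0, and 5 of 50 were at least 25% higher, where 3.88% were. The median over the measured genes therefore lay above that of all genes also among bright genes only, at 0.07 against -0.0078.

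**Figure D1:**
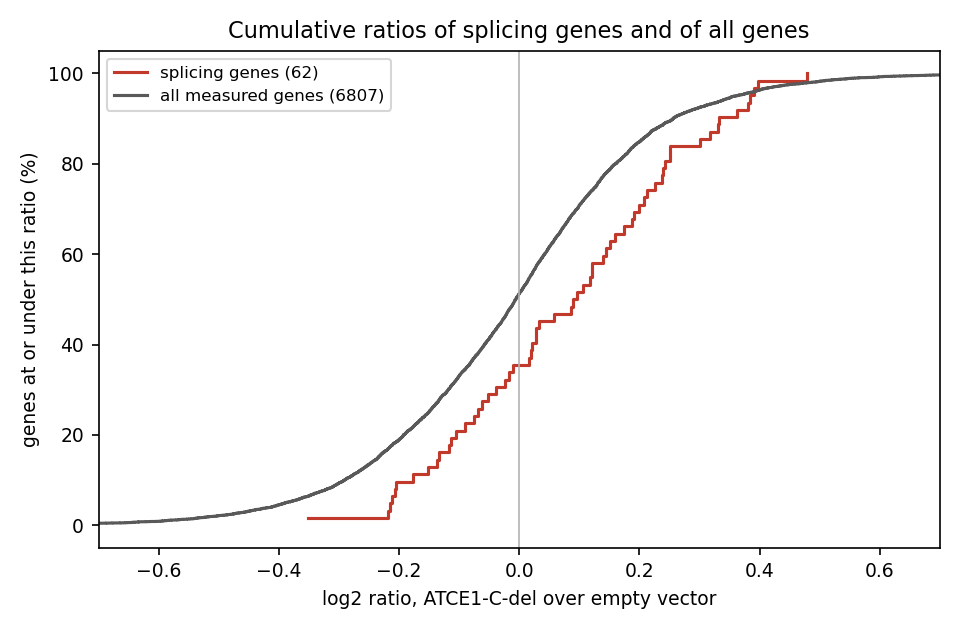
Cumulative share of genes (vertical axis, percent) at or under each log2 ratio (ATCE1-C-del divided by empty vector) (horizontal axis) for the 62 measured splicing genes and for all 6807 measured genes. The curve of the splicing genes lies to the right around the middle, with a median of 0.09 against -0.0060, and meets the other curve near 0.4; scaled to the hybridisation controls both curves move to the right together.

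Each direction here is relative to the rest of the array. The 18 hybridisation controls, probe sets for RNA spiked in before hybridisation, lay at a median log2 ratio of -0.25. Scaling to them moved the median of all measured genes by 0.25, to 0.24, and that of the splicing genes to 0.34, so that the distance between both medians stayed at 0.10. For 1 probe set, the log2 ratio carried an SD of 0.20 from the disagreement of the 2 brightest probe sets of a gene, taken over 2451 genes. The middle 95% of all measured genes ran from -0.48 to 0.45, and 1 of the 62 splicing genes, Prpf40b, lay outside it. The ratio of Prpf40b was taken against the floor, since it was measured on the ATCE1-C-del array only.

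The 7 prefix groups did not sit at the same level. Median log2 ratios were 0.38 for Sf3a (3 measured genes), 0.25 for Lsm (9), 0.19 for Srsf (9) and 0.13 for Prpf (10). They were 0.03 for Hnrnp (18), -0.0098 for Snrp (7) and -0.04 for Sf3b (6). Without Prpf40b, measured on 1 array only, the Prpf median was 0.10 (9 genes). All genes called at least 25% higher fell in the Lsm (3), Sf3a (2), Prpf (2) and Srsf (1) groups, where the background over all measured genes was 6.68%. At that background few calls are due in the 18 Hnrnp, 7 Snrp and 6 Sf3b genes, which held none. The groups overlapped in their values: the ranges of single genes ran from -0.22 to 0.40 for Lsm and from -0.35 to 0.23 for Hnrnp. With 3 to 18 genes a group and no replicate array, the order of the groups is a description of these arrays.

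**Figure D2:**
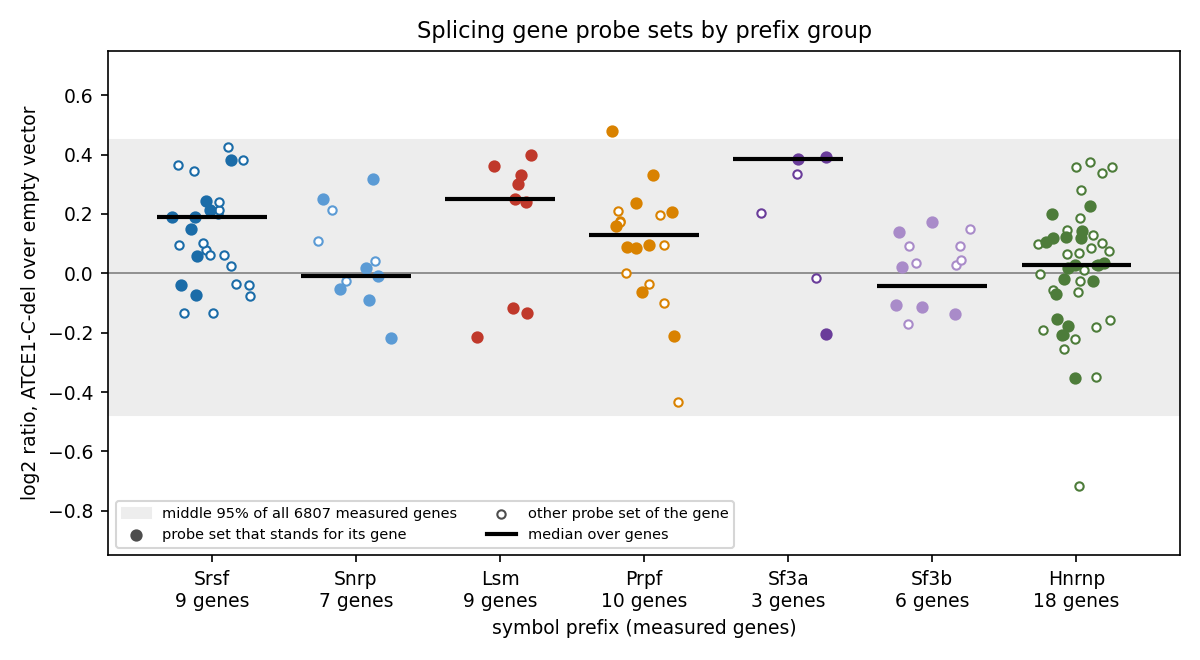
Log2 ratio (ATCE1-C-del divided by empty vector) (vertical axis) for each measured probe set, by symbol prefix (horizontal axis). Filled points stand for their gene, open points are its other probe sets, bars are medians over genes and the grey band is the middle 95% of all measured genes. The bars of Sf3a (0.38), Lsm (0.25), Srsf (0.19) and Prpf (0.13) lie above those of Hnrnp (0.03), Snrp (-0.0098) and Sf3b (-0.04); the Hnrnp bar turns to -0.0015 with array medians, and the Snrp and Sf3b bars turn positive when scaled to the hybridisation controls.

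Among the Sm-like genes, all 5 measured genes of the U6 ring had log2 ratios above 0, where 48.7% of all measured genes did. Of the 5, 2 (Lsm8 and Lsm2) were at least 25% higher, where the background was 6.68%. The Lsm2-8 ring binds the end of U6 RNA, and its genes named here are those read under a single symbol. Lsm5 and Lsm6 of this ring are not among them. Lsm2, Lsm3, Lsm4 and Lsm7 are also subunits of the cytoplasmic ring. Lsm8, the subunit found in the nuclear ring and not in the cytoplasmic one, read 735.8 in ATCE1-C-del cells and 572.5 in empty vector cells (1.29-fold). Lsm2 read 503.2 against 400.2 (1.26-fold), and Lsm7 174.3 against 141.5 (1.23-fold). Lsm3 read 1007.9 against 847.2 (1.19-fold), and Lsm4 read 1097.1 against 929.3 (1.18-fold). The log2 ratios of the 5 thus lay between 0.24 and 0.36, with a median of 0.30. Each rests on a single probe set, so no second reading on these arrays bears on it.

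The Lsm genes with other tasks lay mostly below 0. Lsm1, which replaces Lsm8 in the cytoplasmic ring that serves mRNA decay, read 327.4 in ATCE1-C-del cells and 359.0 in empty vector cells, a log2 ratio of -0.13. Lsm10, a protein of the U7 particle that processes histone mRNA, read 604.6 against 701.8, a log2 ratio of -0.22. Lsm12, named for its Sm-like domain, read 115.9 against 125.7 (-0.12). Lsm14b, a relative of a P-body protein, differed from these with 258.4 against 196.1, and at 1.32-fold it was higher than any ring gene in ratio. Lsm14a was not measured, at 4.9 against 3.4. That the ring genes lay above 0 and Lsm1, Lsm10 and Lsm12 below it was noticed with the values known. These signs stayed under array medians, quantile normalization and lowess, and scaled to the hybridisation controls Lsm1, Lsm10 and Lsm12 turned to 0.11, 0.03 and 0.13.

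**Figure D3:**
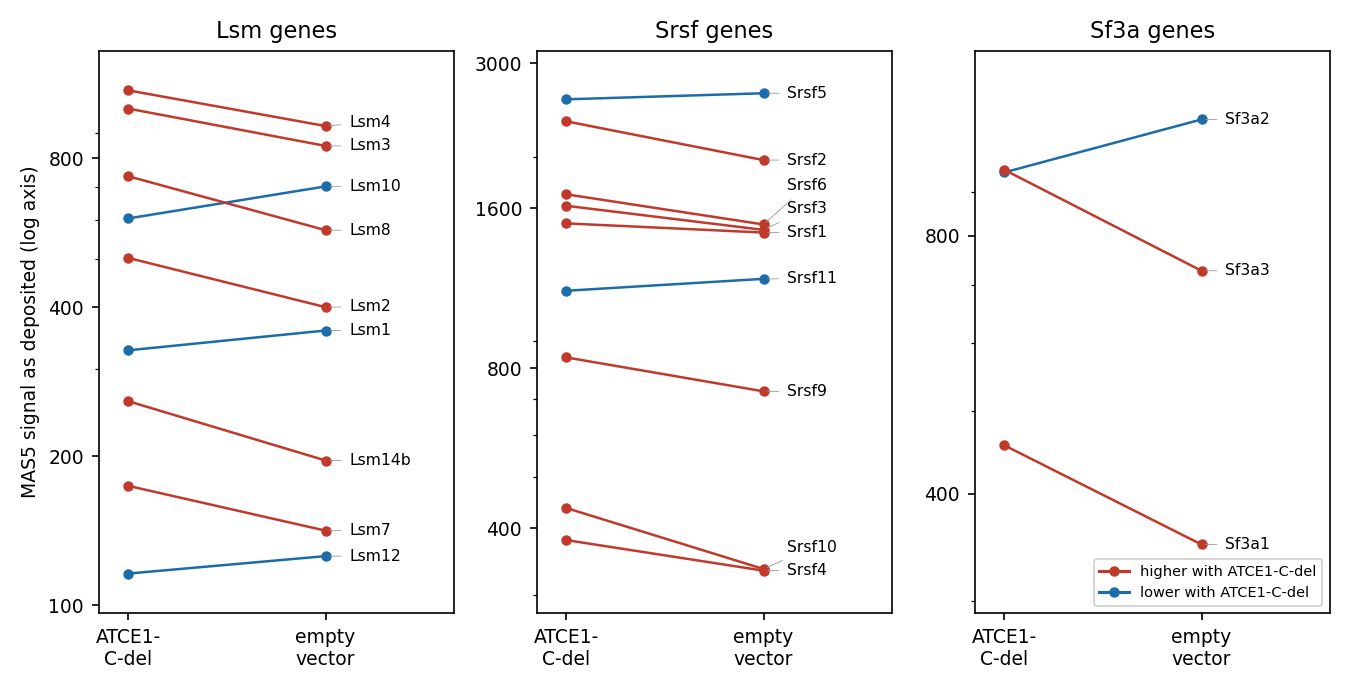
MAS5 signal as deposited (vertical log axis) of the Lsm, Srsf and Sf3a genes measured on both arrays, each by the probe set that stands for the gene, with ATCE1-C-del at the left and empty vector at the right of each panel. Lsm2, Lsm3, Lsm4, Lsm7, Lsm8 and Lsm14b slope down to the empty vector and Lsm1, Lsm10 and Lsm12 slope up; with scaling to the hybridisation controls all 9 would slope down.

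The U2 subunits of SF3A, which forms the branch point particle together with SF3B, had readings that depended on the probe set. Sf3a3 was higher on both of its probe sets, at 954.3 in ATCE1-C-del cells against 727.8 in empty vector cells (1.31-fold), and at 567.2 against 492.5 (0.20 in log2 ratio). Sf3a1 read 455.8 against 349.3 (1.30-fold), but its dimmer probe set read 90.9 against 91.9, near the floor. Sf3a2 read 947.5 against 1092.2 (-0.21), and its dimmer probe set went the other way at 117.5 against 93.2 (0.33). Of the 3 genes, Sf3a3 alone was therefore on the same side of 0 with all of its probe sets.

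The SF3B subunits, by contrast, lay close to 0. All 6 genes had log2 ratios under 0.20 in size, with 3 above and 3 below 0. Sf3b1, the subunit that encloses the branch point adenosine, read 1412.7 in ATCE1-C-del cells and 1528.2 in empty vector cells on one probe set, and 1426.3 against 1391.1 on the other. Sf3b5 had the highest value, at 936.8 against 830.3 (1.13-fold), and Sf3b3 the lowest, at 857.9 against 943.1 (-0.14). Sf3b4, at 0.14 in log2 ratio, and Sf3b2, at 0.02, were above 0, and Sf3b6, at -0.11, below it. The 4 probe sets of Sf3b2 ran from -0.17 to 0.15 and the 3 measured of Sf3b6 from -0.11 to 0.09.

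Genes of the Sm ring and of the U1 and U2 particles showed no common direction. Snrpb, which encodes the Sm protein B, read 1644.0 in ATCE1-C-del cells and 1381.3 in empty vector cells (1.19-fold). The other Sm genes were near level, with Snrpg at 2213.6 against 2187.6, Snrpe at 1866.1 against 1934.9 and Snrpd3 at 616.0 against 656.0. The second probe set of Snrpg was higher, at 1710.9 against 1475.8 (0.21 in log2 ratio). Snrpa1, the U2 protein A′, had the highest ratio of the group, with 452.7 against 363.3 (a log2 ratio of 0.32, just short of 25% higher), and its other probe sets lay at 0.11 and -0.03. Its partner in U2, Snrpb2, read 797.4 against 928.2 (-0.22), with the other measured probe set at 0.04. The U1 protein gene Snrpc was level, at 1426.5 against 1436.2. Snrpn, an Sm gene used mainly in neurons, was not measured on the probe set that names it alone, at 1.3 against 1.4.

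Of the Prpf genes, 8 of 10 were above 0, where 48.7% of all measured genes were. Of the 8, Prpf40b was measured on the ATCE1-C-del array only and could only be above 0. Prpf31, which is needed to form the tri-snRNP and is mutated in a form of retinitis pigmentosa in humans, read 246.3 in ATCE1-C-del cells and 195.6 in empty vector cells (1.26-fold), and its second probe set lay at 0.10. Prpf19, the ubiquitin ligase of the complex that bears its name, was higher on all 3 probe sets, at 1285.5 against 1113.4, 1177.3 against 1040.9 and 678.2 against 602.1. The log2 ratios ran from 0.17 to 0.21, so all 3 readings of the gene were higher by a like amount. The brightest and the next brightest are listed under the same source sequence, so they may overlap. Prpf38a, needed to activate the spliceosome, read 510.7 against 433.0 (1.18-fold). The tri-snRNP genes Prpf3 and Prpf8 stood at 0.16 and 0.09 in log2 ratio, and Prpf6 stood at -0.06. Prpf8 encodes the protein at the catalytic centre, and read 1380.0 against 1299.7.

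Prpf40b, related to a yeast U1 protein, was measured on the ATCE1-C-del array only, with 105.8 against 56.4. Its ratio is at least 1.39-fold against the floor, and without a floor it would be past 1.5-fold. Prpf39, also related to a yeast U1 protein, read 177.2 against 205.1 (-0.21), and its second probe set was level at 103.5 against 103.3. Prpf38b stood at 0.10 and -0.10 on its 2 probe sets. Prpf4b, a protein kinase that phosphorylates splicing factors, was higher on 3 probe sets, from 0.09 to 0.21, and lower on the dimmest one measured, at 79.9 against 107.8 (-0.43).

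Of 9 measured SR protein genes, 7 were above 0, where 48.7% of all measured genes were. At least 25% higher was 1 of the 9, Srsf10, where the background was 6.68%. Of their 27 measured probe sets 20 were above 0 (74.1%), where 50.5% of all measured probe sets were, with a median of 0.10 over probe sets. Srsf2, an SR protein that also acts in transcription, was higher on all 3 measured probe sets. They read 2334.1 in ATCE1-C-del cells against 1973.0 in empty vector cells, 926.0 against 718.4, and 900.1 against 690.4, which are log2 ratios of 0.24, 0.37 and 0.38. All 3 have an identifier that marks probe sets able to match several transcripts. Srsf6 was higher on its 3 probe sets as well, from 0.08 to 0.19. All 3 are listed under the same source sequence, so they may overlap. Srsf9 read 839.1 against 724.3 (1.16-fold) and Srsf4 380.2 against 333.0 (1.14-fold), each on a single probe set.

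For other SR genes the size depended on the probe set. Srsf10, whose protein acts as a repressor when it loses its phosphates in heat shock and mitosis, read 436.9 in ATCE1-C-del cells against 335.4 in empty vector cells (1.30-fold) on its brightest probe set. Its other probe sets stood at 0.10, -0.08 and -0.13, so the call rests on 1 of 4. Srsf3, the smallest of the SR proteins, was above 0 on 5 of 6 probe sets, from 0.06 to 0.42, with the remaining one at -0.04. Srsf1, the founding member of the family, was also above 0 on 5 of 6, at up to 0.24, with 1499.8 against 1441.3 on the brightest. Below 0 were Srsf11, with probe sets at -0.07 and -0.13, and Srsf5, with 2567.4 against 2635.8 (-0.04).

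The hnRNP genes lay on both sides of 0. Of 18 measured genes, 11 were above 0 and 7 below, where 48.7% of all measured genes were above 0. Hnrnph3, of the group that binds runs of G, was the only splicing gene called lower, at 156.5 in ATCE1-C-del cells against 199.7 in empty vector cells (1.28-fold lower, 1 probe set). Hnrnpr, which also takes part in mRNA transport in neurons, was below 0 on all 3 probe sets with little spread, from -0.19 to -0.18. Its signals were 745.4 against 842.4, 565.8 against 645.1 and 310.2 against 351.9. Hnrnpk, a protein that binds runs of C, read 2034.2 against 2346.6 (-0.21), was below 0 on 3 of 4 probe sets and stood at 0.10 on the dimmest. Hnrnpa1, a classic antagonist of SR proteins, was below 0 on both measured probe sets, at -0.07 and -0.25. Scaled to the hybridisation controls, Hnrnpk and Hnrnpr turned to 0.04 and 0.07.

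Higher hnRNP genes were Hnrnpu, Hnrnpdl and Hnrnpc by the probe set that stands for them. Hnrnpc, which binds runs of U, read 3039.9 against 2751.5 (1.10-fold) with its other probe set at -0.0017. Hnrnpu, the scaffold attachment factor, read 2181.5 against 1864.6 (1.17-fold), but a further probe set read 1133.1 against 1442.9 (-0.35), and the remaining 3 lay from 0.01 to 0.08. Hnrnpdl, a relative of Hnrnpd, had the widest disagreement. The brightest of its probe sets read 2411.4 in ATCE1-C-del cells against 2099.3 in empty vector cells (0.20 in log2 ratio), and 3 more were above 0, at 0.28, 0.36 and 0.09. The remaining measured one read 215.6 against 354.4 (-0.72), the only 1 of 131 measured splicing probe sets past 1.5-fold, where 2.51% of all measured probe sets were. Hnrnpf was split as well, with 1889.7 against 1458.6 and 1309.8 against 1020.8 on a pair of probe sets (0.37 and 0.36) and 1815.5 against 2017.4 and 896.5 against 1035.5 on the others (-0.15 and -0.21). Both lower readings came from probe sets with the suffix _x_at, which marks probes that may also match other genes. The brighter of them stands for Hnrnpf, which therefore counts as below 0. Hnrnpab, at -0.02, is also represented by such a probe set, and 3 of its 5 measured probe sets were above 0.

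The spread between probe sets of the same gene was therefore of the size of most differences. Of 34 splicing genes with at least 2 probe sets measured on both arrays, 9 had all of them above 0, 4 had all below 0 and 21 had some on each side. Over all 2451 genes with such probe sets 25.01% had all above 0, 26.1% all below and 48.9% on both sides. All above 0 were 26.5% of the splicing genes, close to that background, and all below 0 were 11.8%. Only Sf3a3 and Srsf2 had at least 2 such probe sets that were all above a log2 ratio of 0.20, and Hnrnpdl was the only gene with probe sets past 0.32 on both sides. The whole range between probe sets of a gene had a median of 0.21 for the splicing genes and 0.22 for all genes.

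**Figure D4:**
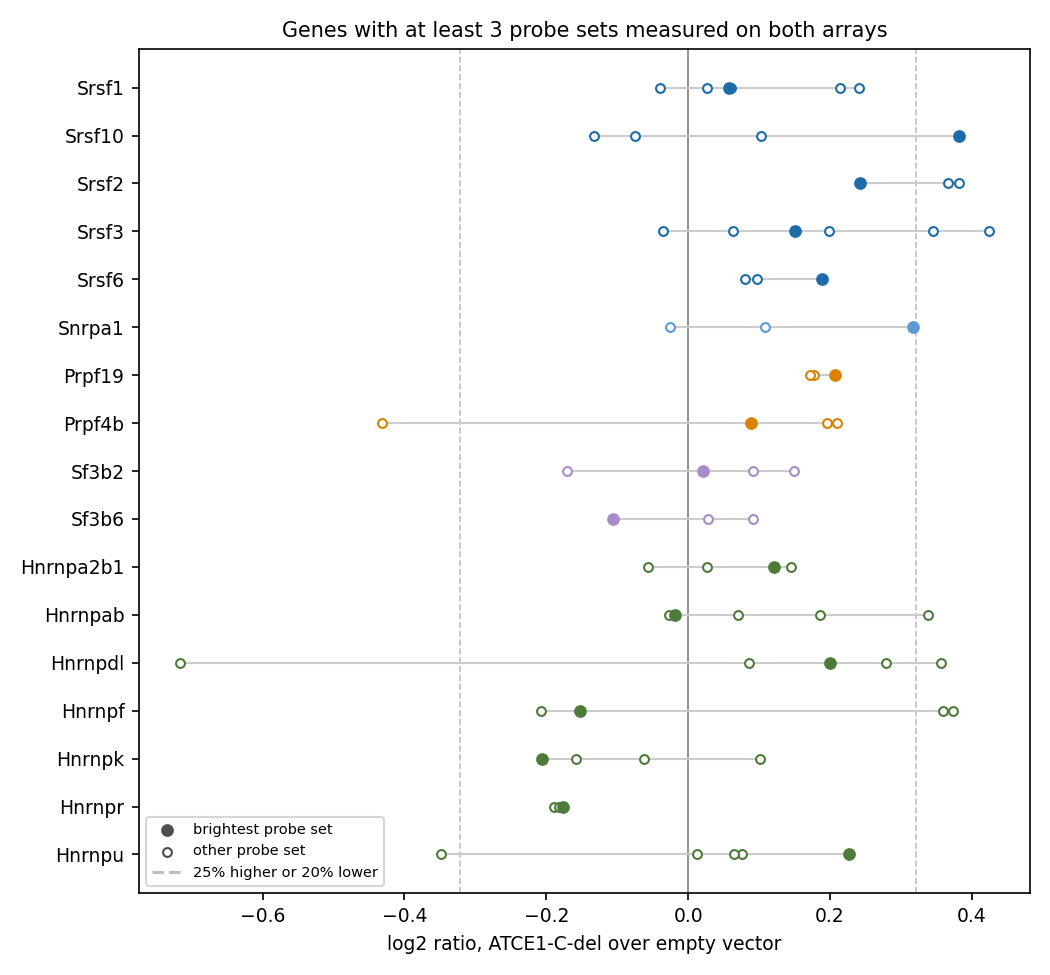
Log2 ratio (ATCE1-C-del divided by empty vector) (horizontal axis) for every probe set measured on both arrays, for genes with at least 3 of them (vertical axis, by prefix group). The filled point is the brightest probe set and dashed lines mark 0.32 on either side. Srsf2, Srsf6 and Prpf19 lie fully above 0 and Hnrnpr fully below it, while Hnrnpdl runs from -0.72 to 0.36; scaled to the hybridisation controls all points move to the right by 0.25 and Hnrnpr lies above 0.

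Other genes of splicing, taken from a list of 111 symbols of which 91 were measured, stood nearer to the whole array. Of these, 52 were above 0 (57.1%) and 39 below, where 48.7% of all measured genes were above 0. Their median log2 ratio was 0.03. At least 25% higher were 3, where the background is 6.68%, and at least 20% lower were 4, where it is 7.89%. The kinases that phosphorylate SR proteins went different ways, with Clk4 at 0.28 and Clk1 and Clk2 at -0.27 and -0.17 in log2 ratio. Those past the steps are given next. Srpk1 read 288.8 in ATCE1-C-del cells against 227.2 in empty vector cells (1.27-fold) and the nuclear kinase gene Clk3 203.5 against 156.7 (1.30-fold). Srpk2 was lower at 370.7 against 506.8 (1.37-fold lower) and 311.8 against 417.7, with its dimmer probe sets at 0.10 and 0.08. Gemin2, of the SMN complex that loads Sm rings, was higher at 128.9 against 99.5. Lower were Celf2, a regulator of alternative exons, at 668.6 against 881.5 and below 0 on all 3 measured probe sets (-0.40, -0.28 and -0.27), and Tia1, which binds U-rich stretches after the start of introns, at 406.9 against 521.7 and also below 0 on all 3 (-0.36, -0.16 and -0.31). Cwc27, a cyclophilin of the spliceosome, read 91.5 against 128.3 (1.402-fold lower), near the floor on the ATCE1-C-del array. The readings of Srpk1, Clk3, Gemin2 and Cwc27 each rest on a single probe set.

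Because the insert encodes a CREB family factor, the promoters of the splicing genes were searched for the CRE and related letters. RefSeq windows of GRCm38.p6, with 250 bases before and 50 after the start, matched 56 of the 64 genes. The octamer TGACGTCA stood in 2 of the 56 (3.57%), where 3.84% of 5625 measured genes and 2.03% of 27025 genes with a window held it. The core TGACG, on either strand and contained in the octamer, stood in 26 of the 56 (46.4%), where 39.0% of measured genes held it. It was found for 7 of 9 Srsf, 9 of 16 Hnrnp and 6 of 10 Prpf genes, for 3 of 7 Snrp and 1 of 7 Lsm genes, and for 0 of 3 Sf3a and 0 of 4 Sf3b genes. TGACGTGG, on either strand, stood in 0 of the 56, where 1.23% of measured genes held it, and CCACGTG, on either strand, in 3 (5.36%), where 7.02% did.

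The octamer lay in the windows of Lsm2, with its first base 34 bases before the start, and of Snrpg, with its first base 49 bases before it. Those genes had log2 ratios of 0.33 and 0.02. The windows of the other Lsm ring genes, Lsm3, Lsm7 and Lsm8 (0.25, 0.30 and 0.36), held neither the octamer nor the core, and no window was matched for Lsm4. The sequences below show the site of Lsm2, the whole stretch of 250 bases before the start of Snrpg, with the octamer, and that of Lsm8, without it. Capitals mark the octamer or the core. The places in GRCm38.p6 are chr17:34982085-34982114 (plus strand) for Lsm2, chr6:86371290-86371539 (plus strand) for Snrpg and chr6:18848385-18848634 (plus strand) for Lsm8.
Lsm2: ggtgggtaccgTGACGTCAaaagggagcgc
Snrpg: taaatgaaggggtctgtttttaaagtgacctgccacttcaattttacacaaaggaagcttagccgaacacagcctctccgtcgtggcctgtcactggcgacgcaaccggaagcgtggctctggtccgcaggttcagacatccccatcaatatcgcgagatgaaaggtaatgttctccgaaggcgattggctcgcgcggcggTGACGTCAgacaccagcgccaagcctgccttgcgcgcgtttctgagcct
Lsm8: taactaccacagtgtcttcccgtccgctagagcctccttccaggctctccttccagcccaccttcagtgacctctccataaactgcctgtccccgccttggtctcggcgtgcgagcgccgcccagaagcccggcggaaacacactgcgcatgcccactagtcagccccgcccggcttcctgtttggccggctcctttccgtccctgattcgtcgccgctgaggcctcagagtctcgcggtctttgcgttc

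The SR protein genes are shown because the core was found for most of them. Srsf3 held 2 cores before its start, and its stretch of 250 bases lies at chr17:29032410-29032659 (plus strand). In Srsf2 the core begins 23 bases after the start, inside the transcript, and is not printed. For the others the 30 bases around the core nearest before the start are given, at chr11:88047267-88047296 (plus) for Srsf1, chr12:80945471-80945500 (plus) for Srsf5, chr2:162931447-162931476 (plus) for Srsf6, chr4:135855961-135855990 (plus) for Srsf10 and chr3:158036671-158036700 (minus) for Srsf11. Capitals mark TGACG or its reverse complement CGTCA.
Srsf3: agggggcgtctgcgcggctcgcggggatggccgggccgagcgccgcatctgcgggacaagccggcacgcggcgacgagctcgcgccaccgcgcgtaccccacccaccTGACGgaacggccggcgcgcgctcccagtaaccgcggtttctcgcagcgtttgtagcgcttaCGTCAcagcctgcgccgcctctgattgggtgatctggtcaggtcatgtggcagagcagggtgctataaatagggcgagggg
Srsf1: gcaacagctcagCGTCAtctatctccgccc
Srsf5: ccgccccggaagTGACGccaggacgtccct
Srsf6: gctgcgcgacgaCGTCAcgcgctgcgccgc
Srsf10: ccgcggtgcgcgCGTCAggccggcggcgcg
Srsf11: cgaccacggctgTGACGtttcaaggtgcca
Of the 7 genes with the core, Srsf10, Srsf2, Srsf6, Srsf3 and Srsf1 had log2 ratios of 0.38, 0.24, 0.19, 0.15 and 0.06. Srsf5 and Srsf11 had -0.04 and -0.07. All but those of Srsf10 and Srsf2 were smaller in size than the probe set SD of 0.20, and a link between the core and the ratio was not tested. Srsf4 and Srsf9, without the core in their windows, were at 0.19 and 0.21. A match of letters is a description and does not show a bound site.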

How the data were processed

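Total RNA of 2 NIH 3T3 cultures was hybridised to 1 Affymetrix array each. The deposited values are MAS5 intensity on a linear scale, where MAS5 is named, without a version, by the submitters' processing notes. Both arrays had the same mean after trimming 2% at each end (250.1). Each held 22690 probe sets, of which 64 controls were left out. The platform annotation gave 1 symbol for 20380 of the rest, several for 691 and none for 1555. Entrez IDs matched all 64 member genes to RefSeq (GRCm38.p6, used for names), which changed 0 symbols.

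Arrays were divided by their trimmed mean, signals were floored at the array median, and log2 ratios were taken. A gene was represented by its brightest probe set (mean log2 signal over both arrays). With 1 array per group, counts used fixed steps (25% higher, 20% lower and 1.5-fold) and no test was made. The script was tested on simulated data. A signal under the floor makes a ratio a bound. The genes named are, by rule, the 3 highest and 3 lowest of each prefix group among genes above the floor on both arrays, its brightest gene, probe sets past 1.5-fold, genes whose probe sets all pass a log2 ratio of 0.20 on 1 side or pass 0.32 on both sides, and up to 5 per direction of the further splicing list, and members beyond these were added after their values were seen. The members, lists, folds and alternatives were chosen with earlier results of these data known. Alternatives covered scaling, floor, log offset, probe set choice and unit. Probe sequences were not used here. Software was matplotlib 3.10.9, statsmodels 0.14.6, scipy 1.17.1, pandas 2.3.3 and numpy 2.4.6 under Python 3.11.15.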

Additional observations from a re-analysis of the deposited data

Results flagged for a closer look

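Outside the members were 15 probe sets whose annotation gives several symbols, at least 1 of them with a splicing prefix. They name no gene here. Of these, 12 had a log2 ratio above 0 and 3 below, where 50.5% of all measured probe sets were above 0. Their log2 ratios ran from -0.11 to 0.79, and some of them carry the same symbols. The highest read 270.2 in ATCE1-C-del cells against 155.8 in empty vector cells, 1.73-fold higher, and was singled out because it is at least 1.5-fold above the control culture in data that the comparison leaves out. The other 3 probe sets with the same pair of symbols read 503.2 against 422.4, 100 against 81.2 and 130.5 against 141.1, so that 1 of them was below 0. No explanation was tested.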

How the results depend on the processing

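No paired analysis was possible because each group has a single array, and no array could be left out. The median of the splicing genes stayed above 0 under all 13 alternatives run, from 0.06 with array medians to 0.34 with hybridisation controls, and its distance to the median of all genes ran from 0.06 without a floor to 0.11 with plain probe sets. The counts moved more. At least 25% higher were 33 of 62 with hybridisation controls (33.6% of all genes), 5 of 50 with the floor at the 75th percentile (3.69%), 5 of 62 with the mean over probe sets (6.05%), 4 of 34 with second-brightest probe sets (8.98%), 17 of 131 by probe set and 18 at a log2 step of 0.20. With the floor at the 25th percentile (8 of 62) and without a floor (9 of 64), the share of all genes was larger, at 17.7% and 24.5%. At least 20% lower were 0 with hybridisation controls (81 of all 6807 genes), the 75th percentile floor (182 of 3690) and second-brightest probe sets (245 of 2640). By probe set 4 were (8.38% of all), and 6 at the log2 step of 0.20 (18.7%). Past 1.5-fold were 6 with hybridisation controls and 1 with the 25th percentile floor, without a floor, with log2(signal + 16) and by probe set. By probe set the background was 2.51%. For the other settings the share of all genes past 1.5-fold was not counted, so these counts have no background. Scaled to the hybridisation controls, which shift all ratios alike, medians were 0.43 for Srsf, 0.24 for Snrp, 0.50 for Lsm, 0.37 for Prpf, 0.63 for Sf3a, 0.20 for Sf3b, 0.27 for Hnrnp and 0.28 for the further list. The Sf3a median was 0.18 with the mean over probe sets, 0.20 with second-brightest ones and 0.27 by probe set. The Srsf median was 0.10 with plain probe sets, and the Prpf median was 0.05 with second-brightest ones, under the 0.11 of Snrp. Near 0, signs turned for Snrp with second-brightest probe sets (0.11) and by probe set (0.017), for Sf3b with the mean over probe sets (0.014), second-brightest ones (0.040) and by probe set (0.036), and for Hnrnp with array medians (-0.0015). No Lsm gene had a second probe set. Of 577 values of 50 genes (47 named by rule, and Lsm3, Lsm7 and Prpf40b), 509 moved by less than the probe set SD of 0.20. Much of this count was fixed in advance. Signals as deposited already had like trimmed means, and a gene with 1 measured probe set cannot change with the choice of probe set. Scaling to the hybridisation controls moved every value past that SD. The count is therefore no measure of how firm the values are. Prpf40b moved to 0.91 without a floor, and among called genes 1 turned, Sf3a1 at -0.016 on its second probe set. Causes were not tested. Low signals limit the calls near the floor.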
